A study of Mus musculus with 7 samples.

Results

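The histone genes of the array were taken as every probe set whose annotation carries a symbol with a histone prefix, from Hist1h and the newer H1f, H2ac, H2bc, H3c and H4c to the variants H2ax, H2az, H3f3 and Macroh2a, whatever its signal. This gave 41 of the 22690 probe sets of the value table, and they name 60 histone genes. Of the 41, 21 name 1 symbol and 20 name several, because histone genes of a family are nearly alike in their coding sequence. The symbols H4bc24, whose older name is Hist1h2br, and H4f16 appear on some of the same probe sets under a spelling outside these prefixes.

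All values are from whole embryos of FVB mice at embryonic day (E) 10.5, with 1 embryo on each of 7 Affymetrix 430A 2.0 arrays. The 2 control embryos came from 1 untreated dam in a normal pregnancy. The 5 diabetes-exposed embryos came from 1 dam made diabetic with streptozotocin (STZ), a toxin of pancreatic beta cells. Of these, 3 had no malformation identified and 2 had a neural tube defect (NTD). Diabetes and litter cannot be told apart with 1 dam on each side, and every p-value is set against the spread between littermates.

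Histones are the proteins around which DNA is wound, H2A, H2B, H3 and H4 in the nucleosome core and H1 on the linker. Most of them are made in S phase from clustered genes without introns, whose mRNAs end in a stem-loop in place of a poly(A) tail and are degraded when DNA synthesis stops. Replication-independent variants such as H3.3, H2A.Z, macroH2A and H1.10 come from genes outside these clusters, some variants from more than 1 gene. Their mRNAs are polyadenylated and they are laid down outside S phase, while H2A.X makes both kinds of mRNA. Some clustered genes also give polyadenylated transcripts. Labelling that starts from an oligo(dT) primer takes up polyadenylated forms, and which primer these arrays had was not given in the sources used here.

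Signals are MAS5 values on a linear scale, and the level of a probe set was not set against that of another. A probe set was tested where it reached the array's 40th percentile, a signal of 131 to 146, in 2 or more arrays. By this filter 27 of the 41 were tested, 11 of 23 replication-dependent and 16 of 18 replication-independent ones. The other 14 had signals of 1.81 to 143 and are not tested here, among them probe sets of H1f4, H1f6, H1f8, H3c4 and H3c7. Calls rest on limma with Benjamini-Hochberg adjustment over all 14554 tested probe sets and a threshold of 0.05.

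Promoters of some of the genes on which the results turn are shown here from RefSeq, in build GRCm38.p6. A window of 250 bases before and 50 after the annotated start was found for 56 of 62 histone genes, with H4bc24 and H4f16 counted. The first 3 belong to genes named by the 1 histone probe set that passed the test, H2bc18 has a probe set of its own, H3c2 stands for the H3 genes and H2az1 for the variants. Capitals mark the octamer ATTTGCAT, an element of H2B promoters bound by the POU factor Oct-1, the TATA box TATAAA and the CCAAT box CCAAT, each searched on both strands and with no overlap among them in these windows.
H2bc22 (chr13:21787238-21787537, + strand): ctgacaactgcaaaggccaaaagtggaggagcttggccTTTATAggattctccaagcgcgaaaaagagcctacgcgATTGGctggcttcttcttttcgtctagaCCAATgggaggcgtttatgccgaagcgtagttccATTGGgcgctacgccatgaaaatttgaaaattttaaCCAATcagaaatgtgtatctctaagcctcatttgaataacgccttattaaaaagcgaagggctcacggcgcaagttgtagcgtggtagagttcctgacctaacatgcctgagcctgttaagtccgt
H2bc8 (chr13:23571150-23571449, + strand): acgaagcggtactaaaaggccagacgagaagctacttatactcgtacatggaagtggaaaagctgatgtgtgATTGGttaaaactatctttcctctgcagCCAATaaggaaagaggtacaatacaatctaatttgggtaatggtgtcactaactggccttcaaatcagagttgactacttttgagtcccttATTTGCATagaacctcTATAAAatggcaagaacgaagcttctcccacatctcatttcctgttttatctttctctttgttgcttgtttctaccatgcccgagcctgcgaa
H2bc14 (chr13:21721794-21722093, + strand): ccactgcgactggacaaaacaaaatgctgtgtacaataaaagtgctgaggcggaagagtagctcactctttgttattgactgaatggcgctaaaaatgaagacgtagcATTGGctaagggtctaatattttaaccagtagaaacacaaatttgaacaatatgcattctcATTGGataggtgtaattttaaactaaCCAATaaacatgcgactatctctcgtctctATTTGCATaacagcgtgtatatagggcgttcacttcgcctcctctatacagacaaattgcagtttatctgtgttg
H2bc18 (chr3:96269450-96269749, + strand): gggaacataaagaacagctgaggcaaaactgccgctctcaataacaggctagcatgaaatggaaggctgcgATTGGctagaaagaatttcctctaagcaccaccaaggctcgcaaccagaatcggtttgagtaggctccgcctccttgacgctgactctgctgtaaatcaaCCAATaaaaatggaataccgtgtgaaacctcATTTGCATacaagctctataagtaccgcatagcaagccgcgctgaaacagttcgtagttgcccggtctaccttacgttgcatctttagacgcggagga
H3c2 (chr13:23752095-23752394, + strand): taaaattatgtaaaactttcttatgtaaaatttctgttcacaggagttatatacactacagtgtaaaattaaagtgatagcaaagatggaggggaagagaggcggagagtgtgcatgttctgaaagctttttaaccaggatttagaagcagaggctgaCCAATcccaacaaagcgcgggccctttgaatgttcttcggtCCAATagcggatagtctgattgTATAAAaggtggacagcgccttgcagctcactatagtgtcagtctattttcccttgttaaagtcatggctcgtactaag
H2az1 (chr3:137864237-137864536, + strand): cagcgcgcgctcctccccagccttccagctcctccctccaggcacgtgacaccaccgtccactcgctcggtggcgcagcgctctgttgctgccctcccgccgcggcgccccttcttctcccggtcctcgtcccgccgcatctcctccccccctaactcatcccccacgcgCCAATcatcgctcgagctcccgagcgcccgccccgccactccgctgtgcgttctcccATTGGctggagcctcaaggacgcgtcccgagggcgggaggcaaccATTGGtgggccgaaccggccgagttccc

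The octamer was present in 4 of 12 H2B windows (33.3%) and in 4 of 11 H2A windows (36.4%), against 1.74% of all 32851 promoter windows. The 12 H2B windows belong to 11 genes, as H2bc6 has more than 1. All 4 H2B matches lie on the strand of the gene and all 4 H2A matches on the opposite strand. The octamer was found in 0 of 10 H3 and 0 of 12 H4 windows, and 1 of the 9 windows of variants held it, that of H3f3b. The CCAAT box was in all 12 H2B, all 11 H2A and all 10 H3 windows but in 3 of 12 H4 windows (25%), against 37.4% of all windows. The TATA box was in 23 of 48 replication-dependent windows (47.9%) and 1 of 9 windows of variants (11.1%), against 13.6%. Windows of neighbouring H2A and H2B genes can overlap, so the same box can be counted in both. The box capitalised for H2bc22, at -212 on the opposite strand, is also that of H2ac22 at -33. The matches of H2bc7 and H2bc15, at -209 and -190, lie on the opposite strand too. These shares are therefore not counts of separate boxes. A match is a string of letters and no proof of a bound site.

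**Figure D1:**
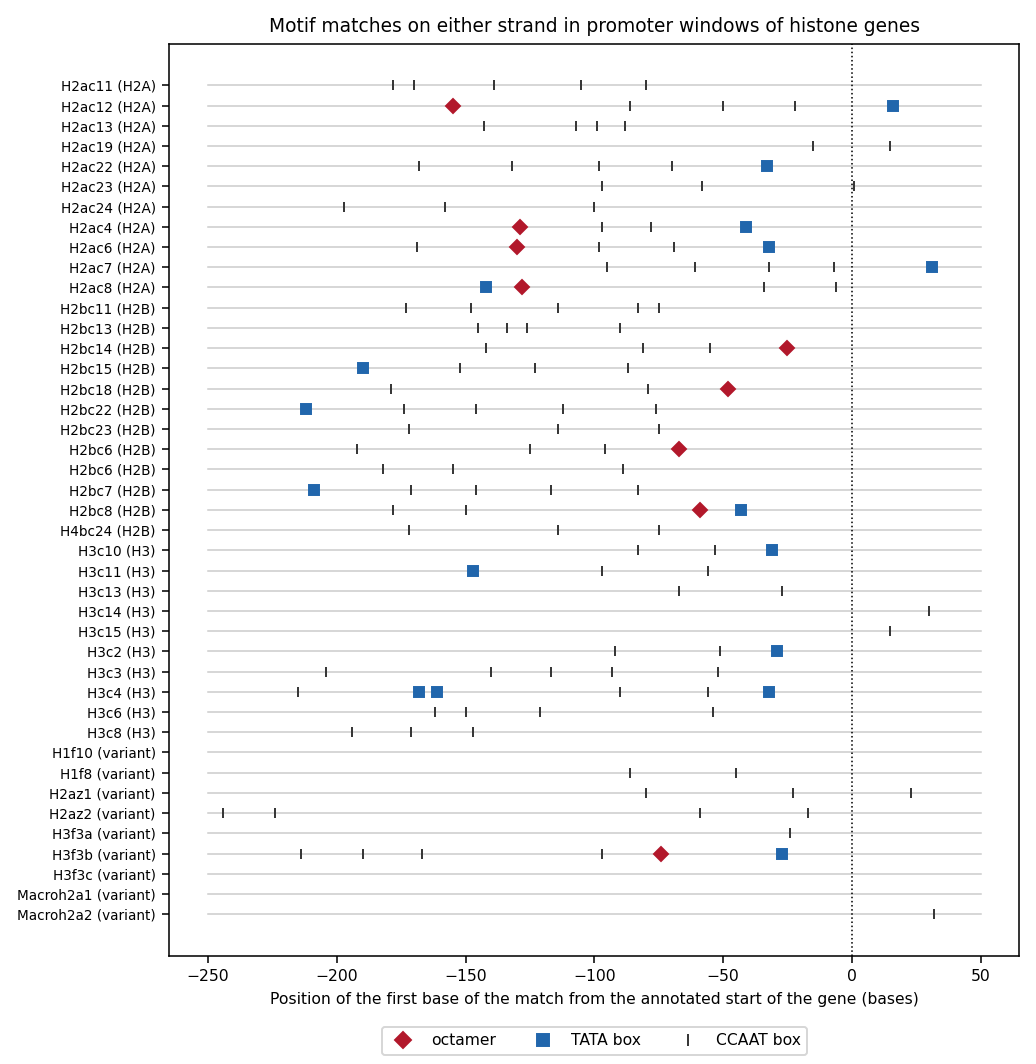
Each line is the promoter window of an H2A, H2B or H3 gene or of a variant, with the distance from its annotated start in bases on the horizontal axis, and marks show the first base of each match on either strand (diamonds, octamer; squares, TATA box; ticks, CCAAT box). The octamer lies at -25, -48, -59 and -67 in the 4 H2B windows that hold it, and at -128 to -155 in the 4 H2A windows.

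Many H2A and H2B genes stand head to head and share the sequence between their starts. Of the 10 genes with a window that the probe set 1452540_a_at names, all lie on chromosome 13. No window was found for H2bc4, which this probe set names too. For 7 of the 10, H2bc7, H2bc8, H2bc11, H2bc13, H2bc22, H2bc23 and H4bc24, the window overlaps by 233 to 279 bases with that of an H2A gene on the opposite strand. All 7 of those H2A genes are named by the probe set 1438009_at. The octamer of H2bc8 is the same run of bases as that of H2ac8, read from the other strand.

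Among the tested histone probe sets, 1 was called lower in diabetes-exposed embryos, 1452540_a_at of the H2B genes. It carries 11 symbols, among them H2bc4, the current name of Hist1h2bc, under which the study lists it. Its signal was 1573 and 1831 in controls 1 and 2. Exposed embryos 1, 2 and 3 without NTD had 699, 852 and 655, and exposed embryos 1 and 2 with NTD had 992 and 643. All 5 exposed embryos lay below both controls, with a mean of 768 ± 150 (SD, n = 5) against 1702 ± 183 (SD, n = 2). The log2 fold change was -1.16 ± 0.18 (SE; 95% interval -1.57 to -0.76), a 2.24-fold lower signal with an adjusted p of 0.0375 in limma. In RNA of whole embryos, fewer cells that express a gene and less of its RNA per cell cannot be told apart. The study chose this gene on these same embryos, so that its direction is not independent evidence.

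The call was 1 of 27 members, in a comparison where 0.0618% of all tested probe sets were called lower and 0.11% higher. It lay close to the threshold, with an adjusted p of 0.0131 to 0.346 over 18 alternatives and a log2 fold change of -1.27 to -1.05. The adjusted p rose above the threshold on leaving out control 1 (0.227), control 2 (0.346), exposed embryo 1, 2 or 3 without NTD (0.0516, 0.0523 and 0.0789) or exposed embryo 2 with NTD (0.0688), and was 0.0212 without exposed embryo 1 with NTD.

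Other features of the embryos went with exposure or with single embryos. All 8 tested genes of 10 on the red blood cell list passed an unadjusted p of 0.05 as higher in exposed embryos, and 0 passed the adjusted test. The summed signal of the 9 genes of the list on the array was 53665 and 55956 in controls and 67504 to 85502 in exposed embryos. None of the globin genes Hbb-bh1, Hbb-y and Hba-x was near 0 in any embryo. Hba-a1, another globin gene of the list, lay below the filter in every embryo, at 16.4 to 99.0. The summed yolk sac and liver list stood at 24633 in exposed embryo 1 without NTD, where the red blood cell sum was highest too. It was 4232 and 3599 in controls and 1620.4 to 2888 in the other 4 exposed embryos, below both controls. Of the 6 tested genes of that list 3 had log2 fold changes above and 3 below 0, with 0 called. Alb had the smallest p (-0.94 ± 0.26, adjusted p = 0.133 in limma). By transcripts of the sex chromosomes, embryo sex nearly coincided with exposure. Xist, which is made from an inactive X, ranged from 6074 to 7533 in 4 exposed embryos, whereas exposed embryo 2 with NTD (256) was near the controls (181 and 165). The Y-linked Eif2s3y was 227 and 203 in controls and 245 in exposed embryo 2 with NTD, against 0.549 to 2.76 in those 4. The part of sex, blood, litter and yolk sac in the H2B result was not tested. Gapdh, with 3' over 5' signal ratios of 0.788 to 0.915, and Actb, with 1.05 to 1.17, gave no separation of the groups. The list of decidua and trophoblast, which a dissected embryo should lack, had 1 of its 10 genes, Plac1, tested. It summed to 724 in exposed embryo 1 without NTD, the embryo of high yolk sac signal, and to 402 to 526 in the others. Prl8a2 of this list, not tested, was 391 in that embryo and 46.9 to 117 in the others. Of the 12 neural, cardiac and mesoderm genes that mark the embryo proper, 12 were tested, with 0 called, 10 above 0 and a median log2 fold change of 0.25. Their summed signal was 17288 and 16629 in controls and 18506 to 21447 in exposed embryos, above both controls in all 5. Meox1, a transcription factor of the somites, had the smallest p, with a log2 fold change of 0.72 ± 0.13 and an adjusted p of 0.0597 in limma. The part of this shift in the H2B result was not tested either.

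**Figure D2:**
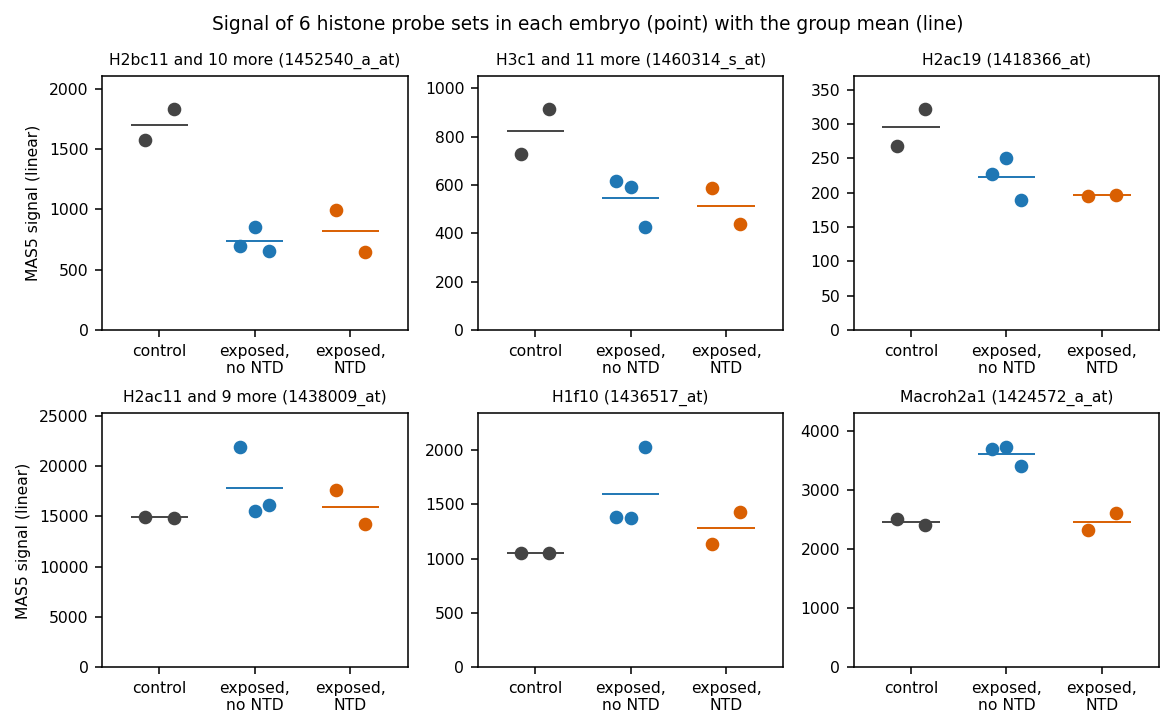
Linear MAS5 signal of 6 histone probe sets on the vertical axis, for controls, exposed embryos without NTD and exposed embryos with NTD; each point is 1 embryo and each line a group mean. The 5 exposed embryos lie between 643 and 992 on the H2B panel, below the controls at 1573 and 1831, and the bright H2A panel shows no such gap.

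The other tested H2B probe sets gave no such difference, at signals near or below the percentile of the filter. Probe set 1418072_at names H2bc4, H2bc6 and H2bc8, all of which 1452540_a_at names too. It had signals of 158 and 129.9 in controls, 161, 161 and 105 in exposed embryos without NTD and 158 and 127 in those with NTD. The groups overlapped fully, and the log2 fold change was -0.03 ± 0.25 (95% interval -0.59 to 0.53). Its signals lay near the percentile of the filter. The untested H2B probe set, 1425398_at, carries 6 symbols, all of them also on 1452540_a_at. It was below the filter in every embryo, with 82.7 and 82.4 in controls and 89.9 to 128 in exposed embryos. All 5 exposed embryos lay above both controls there, the other way from 1452540_a_at.

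Probe set 1427762_x_at of H2bc22 had signals of 109.9 and 127 in controls and 123, 154 and 131 in exposed embryos without NTD. In embryos with NTD it was 142 in the first and 16.3 in the second. The low value of exposed embryo 2 with NTD widened the 95% interval to -2.08 to 1.28 around a log2 fold change of -0.40. The fourth tested H2B probe set, of H2bc18 alone, had 106 and 142 in controls and a log2 fold change of 0.02. Of the 4 tested H2B probe sets 1 was called. Those of H2bc18 and H2bc22 passed the filter only through exposed embryos, in 3 and 2 arrays, and lay below it in both controls. With controls that low, these 2 probe sets cannot decide whether their genes fell.

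Among the H2A genes, the probe set 1438009_at covers 10 genes, 7 of which share a promoter region with an H2B gene of 1452540_a_at. Its signals were 14951 and 14863 in controls. They were 21942, 15569.9 and 16108 in exposed embryos without NTD and 17594 and 14284 in those with NTD. The exposed embryos were thus above both controls in 4 of 5, with the highest value in exposed embryo 1 without NTD, the embryo of high yolk sac signal. The log2 fold change of 0.18 ± 0.14 (95% interval -0.13 to 0.49) did not pass the test, with an adjusted p of 0.557 in limma. On the H2B side of these promoters, as far as 1452540_a_at reports it, the interval lay wholly below 0. Neither probe set tells which of its genes gave the signal.

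H2ac19, an H2A gene on chromosome 3, has a pair of tested probe sets. On 1418366_at the signal was 269 and 322 in controls, 228, 249.8 and 189.6 in exposed embryos without NTD and 195 and 197 in those with NTD. All exposed embryos were below both controls, but the log2 fold change of -0.48 ± 0.18 had an adjusted p of 0.229 in limma. On 1418367_x_at, some of whose probes resemble other sequences, the signals were 311 and 352 in controls, 266, 373 and 238 without NTD and 318 and 245 with NTD. Here the groups overlapped and the log2 fold change was -0.22 ± 0.20.

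The H3 genes are represented by 1 tested probe set of 6, 1460314_s_at, which names 12 of them. It gave 730 and 913 in controls, 617, 589.8 and 426 in exposed embryos without NTD and 588 and 438 in those with NTD. As on the H2B probe set, all 5 exposed embryos were below both controls, with the lowest values in exposed embryo 3 without NTD and exposed embryo 2 with NTD. The log2 fold change was -0.64 ± 0.19 (95% interval -1.05 to -0.23) with an adjusted p of 0.150 in limma, and array quality weights alone among 18 alternatives brought it to 0.0497.

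The groups overlapped on the tested probe sets of H4 and of the replication-dependent linker histone H1f2. The 1 tested H4 probe set of 4, 1422948_s_at with 13 symbols, was 479.6 and 559 in controls, 497, 607 and 464 without NTD and 539.6 and 434 with NTD. Its log2 fold change was -0.04 ± 0.16 (95% interval -0.39 to 0.31). H1f2, which codes for H1.2, was 402 and 361 in controls and 319 to 465 in exposed embryos on 1416101_a_at (log2 fold change 0.04 ± 0.17). On 1438204_at it was 106 and 185 in controls and 145 to 191 in exposed embryos (log2 fold change 0.21 ± 0.25), and the controls spanned more than the 5 exposed embryos.

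Over the 11 tested replication-dependent probe sets, 4 log2 fold changes were above and 7 below 0, with a median of -0.04 beside 0.00 over all tested probe sets. All 5 exposed embryos lay below both controls on 3 of the 11, and above both on 0, while the same held for 13.4% and 11.4% of all tested probe sets. At an unadjusted p of 0.05, 3 were lower and 0 higher, in a comparison where 8.52% of all tested probe sets were lower and 7.63% higher. The 3 are those of H2B, H3 and H2ac19. The median differed between embryos as well. On the log2 scale, relative to the control mean, 3 exposed embryos were at 0.06, namely 1 and 2 without NTD and 1 with NTD. Exposed embryo 3 without NTD was at -0.16, and exposed embryo 2 with NTD at -0.26.

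**Figure D3:**
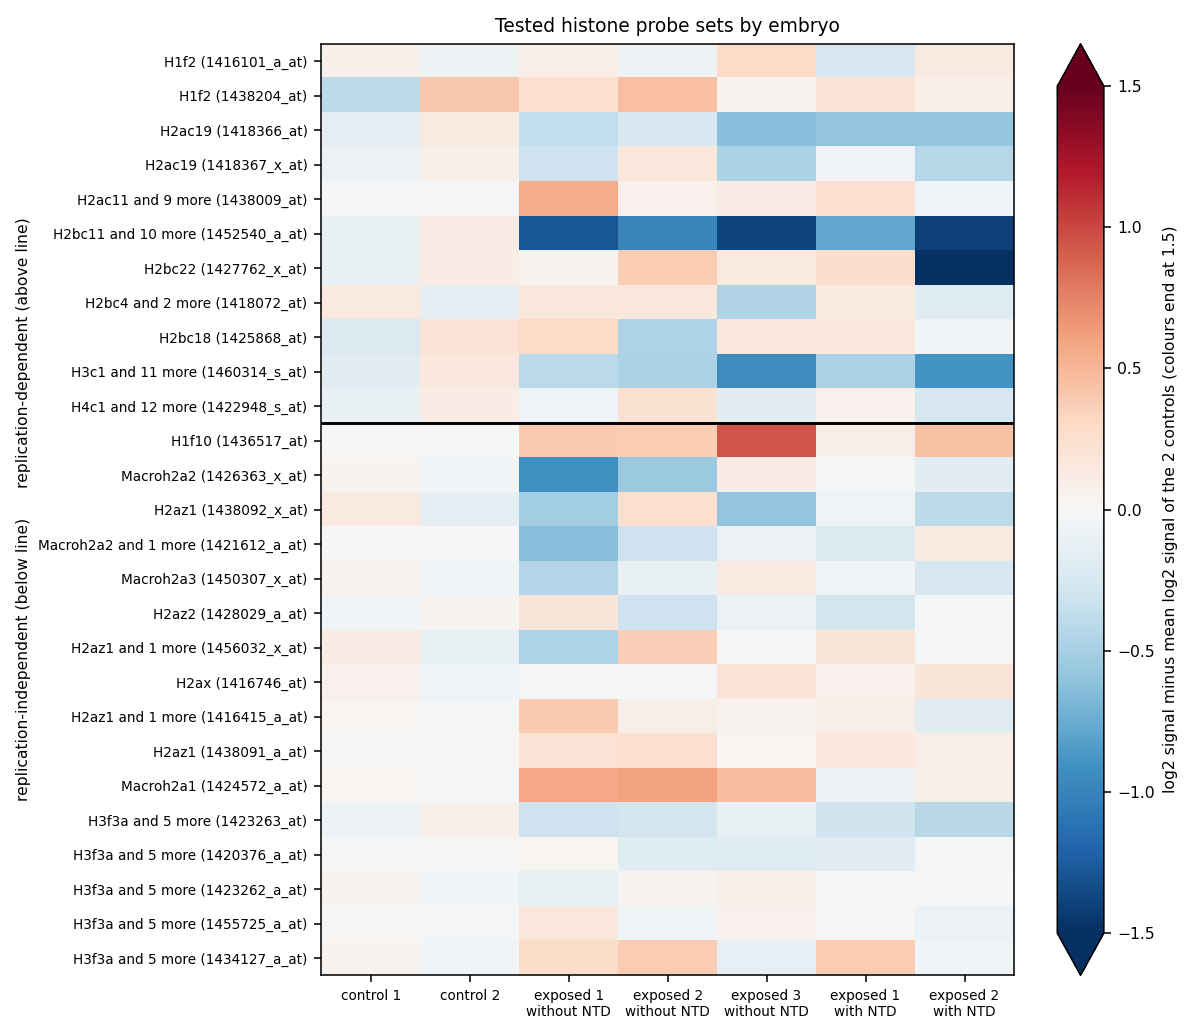
Log2 signal minus the mean log2 signal of the 2 controls (colour, ending at 1.5 in each direction) for the 27 tested histone probe sets (rows; replication-dependent above the line, variants below) in each embryo (columns). The row of 1452540_a_at is blue in all 5 exposed embryos, and the darkest cell is that of H2bc22 in exposed embryo 2 with NTD, with a signal of 16.3.

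Of the replication-independent variants, 0 of 16 tested probe sets were called. H1f10, the linker histone H1.10, came nearest among those higher in exposed embryos. It was 1054 and 1057 in controls, 1387, 1373 and 2032 in exposed embryos without NTD and 1133 and 1428 in those with NTD. All 5 exposed embryos were above both controls, the controls differed by less than any exposed embryo from them, and the log2 fold change of 0.45 ± 0.19 had an adjusted p of 0.278 in limma. Exposed embryo 3 without NTD was the highest.

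The 5 probe sets of H3.3, which all name H3f3a, H3f3b, H3f3c and 3 further symbols, did not move alike. On 1423263_at the signal was 8586 and 9555 in controls, 7304, 7492 and 8397 in exposed embryos without NTD and 7391 and 6777 in those with NTD. All exposed embryos lay below both controls, with a log2 fold change of -0.28 ± 0.10 and an adjusted p of 0.229 in limma. The other 4 had log2 fold changes of -0.11 ± 0.10 (1420376_a_at), 0.00 ± 0.10 (1423262_a_at), 0.02 ± 0.10 (1455725_a_at) and 0.17 ± 0.15 (1434127_a_at). On 1420376_a_at the signals were 5399 and 5561 in controls and 4773 to 5611 in exposed embryos, and on 1423262_a_at 5129 and 4808 in controls and 4587 to 5284 in exposed embryos. The remaining 2 gave 9041 and 8851 in controls and 8387 to 10071 in exposed embryos on 1455725_a_at, and 9907 and 9295 against 8815 to 12468 on 1434127_a_at. These 4 overlapped between the groups, and a probe set below both controls in all exposed embryos stands beside others near or above 0 for the same genes.

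H2az1, the gene of H2A.Z.1, likewise had 3 probe sets with log2 fold changes above 0 and 1 below. The narrowest was 1438091_a_at, with 8030 and 8269 in controls, 9434, 9643 and 8319 in exposed embryos without NTD and 9066 and 8723 in those with NTD. It was above both controls in all 5 exposed embryos, by a log2 fold change of 0.15 ± 0.09 with an adjusted p of 0.461 in limma. On 1416415_a_at the signals were 15796 and 15063 in controls, 20307, 16349 and 15986 without NTD and 16395 and 13696 with NTD, with the highest again in exposed embryo 1 without NTD. On 1438092_x_at they were 2282 and 1874 in controls, 1438, 2466 and 1373 without NTD and 1982 and 1569 with NTD. The groups overlapped on both, with log2 fold changes of 0.09 ± 0.13 and -0.26 ± 0.21.

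The other 7 tested histone probe sets, of H2bc18, H2ax, H2az2, Macroh2a2, Macroh2a3 and H2az1, lay between -0.31 and 0.09 in log2 fold change, with an adjusted p of 0.565 or more in limma. Over the 16 variants, 9 log2 fold changes were above and 7 below 0, with a median of 0.01, and 1 probe set was lower and 1 higher at an unadjusted p of 0.05. All 16 intervals lay between -1 and 1 on the log2 scale, so that no interval reached a 2-fold change.

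**Figure D4:**
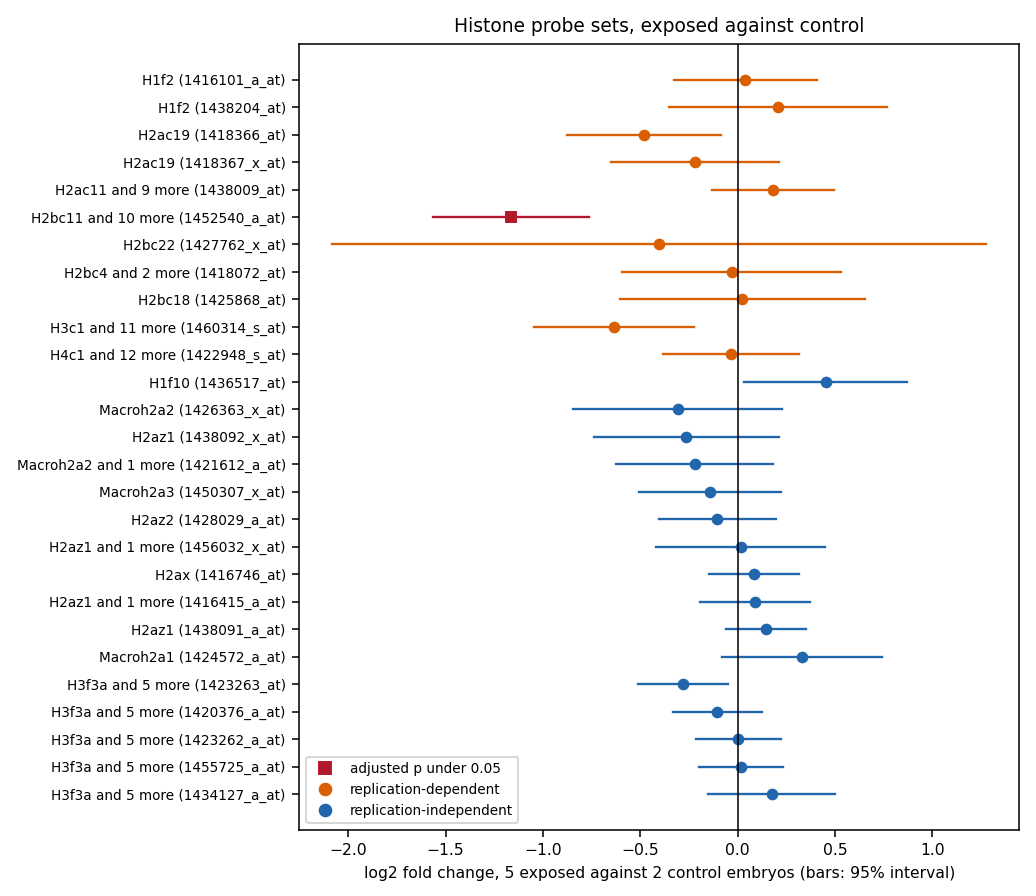
Log2 fold change of the 27 tested histone probe sets (points) with 95% intervals (bars) for 5 exposed against 2 control embryos. The square marks 1452540_a_at at -1.16, with an interval of -1.57 to -0.76, and the widest bar is that of H2bc22, from -2.08 to 1.28.

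Embryos with and without NTD were set apart in a fit of 3 groups. Both are compared with the same 2 controls. For 1452540_a_at the log2 fold change was -1.22 ± 0.21 without NTD and -1.09 ± 0.22 with NTD, with adjusted p-values of 0.05004 and 0.316 in limma, so that neither was called. The difference with against without NTD was 0.13 ± 0.21 (95% interval -0.33 to 0.59). For the H3 probe set 1460314_s_at the values were -0.60 ± 0.21 without NTD and -0.69 ± 0.23 with NTD, with a difference of -0.08 ± 0.21. For H1f10 they were 0.57 ± 0.20 and 0.27 ± 0.21, with a difference of -0.30 ± 0.20.

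Macroh2a1, the gene of the large variant macroH2A1 found on the inactive X chromosome among other places, differed the most between these embryos relative to its error. Its probe set 1424572_a_at had 2507 and 2413 in controls, 3685, 3729 and 3402 in exposed embryos without NTD and 2315 and 2611 in exposed embryos with NTD. The embryos without NTD stood above all others, and those with NTD overlapped the controls. The log2 fold change was 0.55 ± 0.12 without NTD (adjusted p = 0.0887 in limma) and 0.00 ± 0.14 with NTD (adjusted p = 1.00). The difference with against without NTD was -0.55 ± 0.12 (unadjusted p = 0.00127 in limma) and an adjusted p of 0.999. Xist was 6074 to 6840.2 in the embryos without NTD, 7533 and 256 in those with NTD and 181 and 165 in controls, and its part in these values was not tested.

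The next smallest p-values in that comparison were those of H2bc22, through its 1 low embryo (log2 fold change -1.49 ± 0.73), and of H2az1 on 1416415_a_at (-0.22 ± 0.13). In all 3 comparisons 0 of 27 histone probe sets were called, beside 0.295% of all tested probe sets without NTD against controls and 0.0% in both others. At an unadjusted p of 0.05, 2 histone probe sets were higher and 2 lower without NTD, where 7.8% and 9.08% of all tested probe sets were. With NTD 0 were higher and 4 lower, where 3.6% and 4.1% were. With against without NTD 0 were higher and 1, Macroh2a1, was lower, where 1.64% and 1.38% were.

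Genes that act on histones or in S phase were read from lists chosen for their function, a gene by its brightest probe set. Of 16 genes of histone mRNA processing and transcription 12 were tested, with 0 called and a median log2 fold change of -0.07. Slbp, whose product binds the stem-loop, had 0.02 ± 0.12. Coil, coding for a scaffold of Cajal bodies, had the smallest p of the list, its mean signal being 855 ± 27.9 (SD) in the 2 controls against 657 ± 101 (SD) in the 5 exposed embryos (log2 fold change -0.39 ± 0.17, adjusted p = 0.282 in limma). Next were Ncbp1 (-0.16 ± 0.12) and Ncbp2 (-0.24 ± 0.21) of the cap-binding complex, and Upf1 (0.34 ± 0.28), a helicase used in histone mRNA decay.

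Of 22 histone chaperones and assembly factors 17 were tested, with 0 called and a median of 0.08. Atrx, an X-linked remodeller that deposits H3.3 with Daxx, had 447 and 430.1 in controls, 177, 167 and 219 in exposed embryos without NTD and 212 and 247 in those with NTD. The groups did not overlap, and the log2 fold change of -1.12 ± 0.19 had an adjusted p of 0.0538 in limma. The study names Atrx among the genes it chose on these embryos. It also reports lower Atrx in exposed embryos of other pregnancies by quantitative RT-PCR. The others of smallest p were Nasp (-0.15 ± 0.10), which carries H3 and H4, Set (0.18 ± 0.12), and Rbbp4 (0.16 ± 0.10), a subunit of the assembly factor CAF-1.

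Of 27 genes of S phase and DNA synthesis 26 were tested, 13 with log2 fold changes above and 13 below 0, a median of 0.01 and 0 called. Ccne1, the cyclin of S phase entry, had 0.39 ± 0.15 (adjusted p = 0.243 in limma) and Fen1, a nuclease of lagging-strand synthesis, 0.58 ± 0.24. The Fen1 controls lay far apart, at 1531 and 2850, and the exposed embryos, at 2335 to 3788, overlapped them. The licensing factor Cdt1 had 0.27 ± 0.13 and the kinase Cdk2 -0.26 ± 0.12. The summed signal of the list was 68866 and 67724 in controls and 67269 to 72996 in exposed embryos. Exposed embryo 1 without NTD was below both controls and the other 4 were above both, and the part of S phase in the histone values was not tested.

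**Figure D5:**
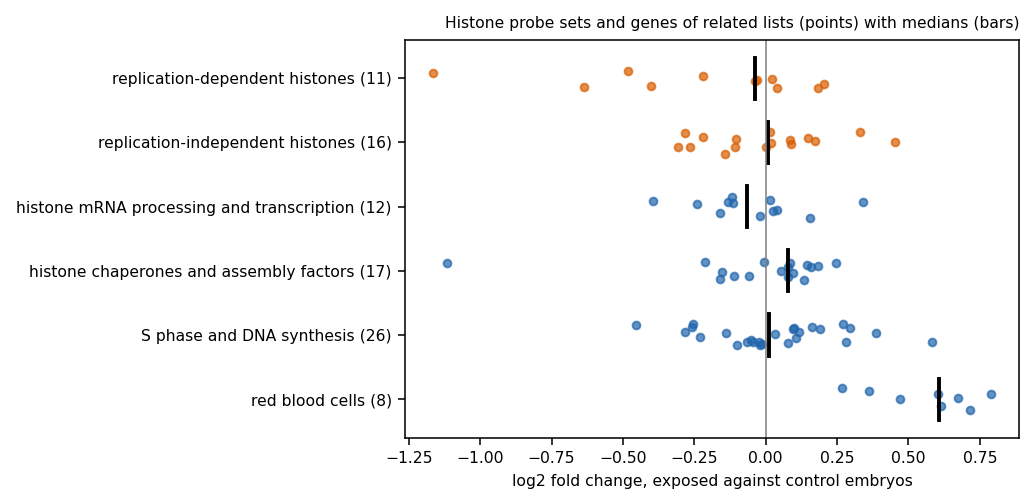
Log2 fold change, exposed against control embryos, of the tested histone probe sets and of the tested genes of related lists (points, with random vertical offsets; numbers of points in brackets) and their medians (bars). The medians of the histones and of the lists of histone mRNA processing, histone chaperones and S phase lie between -0.07 and 0.08. The points far to the left are 1452540_a_at and Atrx, and all 8 red blood cell genes lie above 0.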

How the data were processed

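RNA of 7 whole embryos was labelled by the submitters and hybridised to 1 Affymetrix 430A 2.0 array each. The deposited values are linear intensities, MAS5 signals that the authors scaled so that the mean after trimming 2% at each end is 500.2 on every array. Its MAS5 version was not given in the sources used here. Precision is limited by how few arrays there are.

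Groups came from the sample titles. Signals below 1 were set to 1 and log2-transformed. Probe sets that reached the 40th percentile of an array in 2 or more of the 7, without control probe sets, were tested with limma 3.58.1 and eBayes with trend under R 4.3.3, with Benjamini-Hochberg adjustment over all 14554. limma was tested on simulated data. Symbols came from the array annotation, and all 60 histone genes matched the RefSeq table. Promoter windows were read from RefSeq (GRCm38.p6).

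The histone probe sets and the gene lists were chosen with earlier results of these data known. Probe sets given embryo by embryo were those called in any comparison and, of those naming Hist1h2bc, the one with the most symbols. To these came the 3 of smallest p and the brightest of each class. The 3 of smallest p with against without NTD, and all of a gene whose probe sets differ in sign, were given too. From each list the 4 genes of smallest p were named, and Slbp for its role. Alternatives were other normalizations, floors, filters, weights, groupings, a replicate block, the methods' t-test and each embryo left out. Other tools were statmod 1.5.0, NumPy 2.4.6, pandas 2.3.3, Matplotlib 3.10.9, SciPy 1.17.1 and Python 3.11.15. Experiment II of the study was not analysed here.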

Additional observations from a re-analysis of the deposited data

Results flagged for a closer look

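The signal of H2bc22 on 1427762_x_at was 16.3 in exposed embryo 2 with NTD, far below the 123 to 154 of the other 4 exposed embryos, and was marked because the gap to the nearest of them took up most of the range of the group. The test for a single low or high embryo marks about 1 in 20 groups by chance, and 20 histone probe sets were examined. The whole difference between embryos with and without NTD on this probe set came from that embryo.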

How the results depend on the processing

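The 1 histone probe set called for exposed against control embryos, 1452540_a_at, kept its direction under all 18 alternatives but was called under 7. The number of histone probe sets called was 0 with quantile normalization, without the filter, without the trend, with exposed embryos as the mean of their 2 groups and by the methods' t-test after Benjamini-Hochberg with a fold beyond 2, and 2 with array quality weights. It was 0 to 1 with each embryo left out. Among probe sets naming 1 symbol it was 0 by construction, since 1452540_a_at names 11. Between same-numbered embryos, correlations of the deviations from group means were -0.25 to 0.03. In a group of 2 embryos these deviations mirror each other, so that the correlations cannot decide whether the numbers pair embryos. The replicate block gave 0 calls, with a log2 fold change of -1.11 for 1452540_a_at. For embryos without NTD against controls, the count of 0 became 1 with a floor of 10, an offset of 50, the filter in all 7 arrays or array quality weights, and was 0 to 1 with each embryo left out. The median log2 fold change of replication-dependent probe sets became -0.22 with the filter in all 7 arrays, where fewer dim probe sets remained, and ran from -0.20 to 0.014 with each embryo left out. That of the replication-independent ones became -0.12 with quantile normalization and -0.045 without the filter, and ran from -0.051 to 0.041 with each embryo left out, so that its sign is not settled. Of the genes in related lists, 1, Atrx, was called with an offset of 50, the filter in all 7 arrays or array quality weights. The causes were not tested. Over all 14554 probe sets the calls ranged from 0 to 491 against 25. No depth is known for these intensities, and 2 controls set the width of the intervals.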
